A study of Mus musculus with 8 samples.

Results

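The 10 genes described here encode enzymes that bring long-chain fatty acids into mitochondria, break them down there, or set the level of the inhibitor that controls their entry. They were chosen by name: Cpt1a, Cpt1b, Cpt2, Acadl, Acadm, Acadvl, Hadha, Hadhb, Mlycd and Acacb, each found once among the 54532 genes of the deposited table. RNA came from heart tissue of mice at postnatal day 4, in 4 control and 4 cHET libraries that the series calls biological replicates. Control hearts were Mrps5 fl/+, with 1 floxed Mrps5 allele and no Cre; the MRPS5 protein sits in the small part of the mitochondrial ribosome. The cHET hearts were Mrps5 fl/+; Myh6-Cre littermates, which carried the same floxed allele and Cre under the promoter of Myh6, which is active in heart muscle cells, so that other cells of the heart keep the floxed allele uncut. Cre without a floxed allele was in neither group, so effects of the Cre transgene and of the deletion cannot be told apart. Libraries are named by group and replicate number as the labels give them (control 1 to 4, cHET 1 to 4). FPKM is the number of reads divided by gene length and by the sequencing depth of the library.

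Long-chain fatty acids enter the mitochondrion as carnitine esters. CPT1 on the outer membrane makes the ester, a carrier takes it across the inner membrane, and CPT2 turns it back into an acyl-CoA, which is then shortened in cycles that each start with an acyl-CoA dehydrogenase. Malonyl-CoA inhibits CPT1: acetyl-CoA carboxylase beta (Acacb) makes it at the mitochondrial surface and malonyl-CoA decarboxylase (Mlycd) removes it. The heart of the newborn is known to move from glucose and lactate to fatty acids as its main fuel in the days after birth, and the muscle form of CPT1 (Cpt1b) is known to take over from the liver form (Cpt1a) in heart muscle as the animal grows.

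The deposited levels covered a wide range, from Acadl at a mean of 592 FPKM over the 8 libraries to Cpt1b at 6.02 FPKM. No member differed between the groups by the test across all genes. Of the 10 members, 8 had a log2 fold change below 0 in cHET and 2, Acadl and Cpt1b, had one above 0, with a median of -0.11 against 0.0086 over the 13029 genes tested. Of all genes tested, 47.9% had a value below 0 and 52.1% above. With each library rescaled to the same summed FPKM (TPM), the median of all genes moved to 0.10, 6 of 10 members were below 0 and their median was -0.01. The members were high and low in the same libraries: all 10 had their lowest control value in control 2, and 7 of 10 had their highest control value in control 4.

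A few stretches of DNA are shown first, among them that between Hadha and Hadhb, which start next to each other in opposite directions. The members varied together between libraries, and the part of these sequences in that was not tested. RefSeq promoter windows (GRCm38.p6, from 250 bases before to 50 after a gene's start) were matched for 9 of the 10 genes. The letters AGGTCA on either strand, the half-site that receptors such as PPAR, RXR and ERR are known to bind, were found in 4 of the 9 windows (Acadm, Acacb, Acadvl and Cpt1a) and in 16.3% of all 32851 windows. In Acacb the half-site began 43 bases after the RefSeq start and is not shown. That window, chr5:114165268-114165567, lies inside the gene as deposited, which starts at 114146535. Below, the half-site is in capitals in the other windows, with up to 27 bases on either side, read 5′ to 3′ on the strand of the gene.
Acadm, chr3:153944860-153944893, minus strand: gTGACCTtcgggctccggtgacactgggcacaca
Acadvl, chr11:70015483-70015542, minus strand: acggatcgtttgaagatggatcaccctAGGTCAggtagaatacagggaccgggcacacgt
Cpt1a, chr19:3323180-3323239, plus strand: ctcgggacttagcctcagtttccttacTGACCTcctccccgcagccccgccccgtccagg
The half-site began 249 bases before the RefSeq start in Acadm, 87 before it in Acadvl and 94 before it in Cpt1a. The full PPAR response element, a direct repeat of the half-site, was in 0 of the 9 windows and in 0.0396% of all windows, and TCAAGGTCA, an extended half-site of the ERR receptors that holds AGGTCA within it, was in 0 of 9 and 0.423%. The GC box GGGCGG was in 5 of 9 (Acadl, Cpt2, Hadha, Hadhb and Cpt1a) and in 35.7% of all windows. The windows of Hadha (30154931 to 30155230) and Hadhb (30155003 to 30155302) overlap, and the GC box at 30155163 lies in both. CCAAT was in 3 of 9 (Acacb, Mlycd and Cpt1a) and in 37.4%. TATAAA was in 1 of 9 (Acacb) and in 13.6%, CACGTG in 0 and 7.15%, and the NRF1 site in 0 and 0.971%. These motifs were searched on both strands.

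The 85 bases between the ends of Hadha and Hadhb in the deposited table are shown on the plus strand, with GC boxes in capitals.
Hadha to Hadhb, chr5:30155163-30155247, plus strand: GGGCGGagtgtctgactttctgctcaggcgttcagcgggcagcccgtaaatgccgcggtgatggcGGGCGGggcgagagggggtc
Of these bases 69.4% were G or C, and 2 GC boxes were found. The RefSeq starts, 30154980 for Hadha and 30155253 for Hadhb, lie further apart than these ends. The sequences are from RefSeq, and a match of letters describes the window without saying what binds there.

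The libraries held 15490622 to 19234777 reads assigned to genes, rebuilt from FPKM and gene length. Per member and library this came to between 173 reads (the lowest value of Cpt1b) and 26377 (the highest of Hadha). By their levels of Xist and Ddx3y, control 1, control 3 and cHET 1 were male and the other libraries female, so sex was not balanced between the groups. The markers of heart muscle were high throughout, with a summed level of 18319 to 22291 FPKM for 12 of 12 genes. Markers of other tissues differed between libraries. Ucp1, which uncouples brown fat mitochondria, reached 17.8 FPKM (control 1), 16.7 (control 2) and 6.56 (cHET 2), while the highest of the other 5 libraries had 1.62. Adipoq, a hormone of fat cells, was at 4.43, 5.16 and 2.14 FPKM in those same libraries. The 12 brown fat markers summed to 609.5 to 903 FPKM in control and 631 to 706 FPKM in cHET. Lep alone was under 0.1 FPKM in every library. Their sum does not measure brown fat, and came mostly from other genes of the list. Control 4 had 609.5 FPKM with Ucp1 at 0.149 and Adipoq at 0.265, and cHET 3 had 639 FPKM with both at 0. Brown fat is itself known for high beta-oxidation. Its part in the values below was not tested. Mrps5 stood at 8.27 ± 3.05 FPKM in control against 7.16 ± 0.365 in cHET (SD, n = 4). Its log2 fold change was -0.13 (limma, adjusted p = 0.849), and 0.0412 without control 1. The libraries labelled control 2 and control 4 lay below every cHET library, so the level of the targeted gene does not check the labels. In heart tissue, fewer cells of a type and less RNA per cell cannot be told apart.

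**Figure D1:**
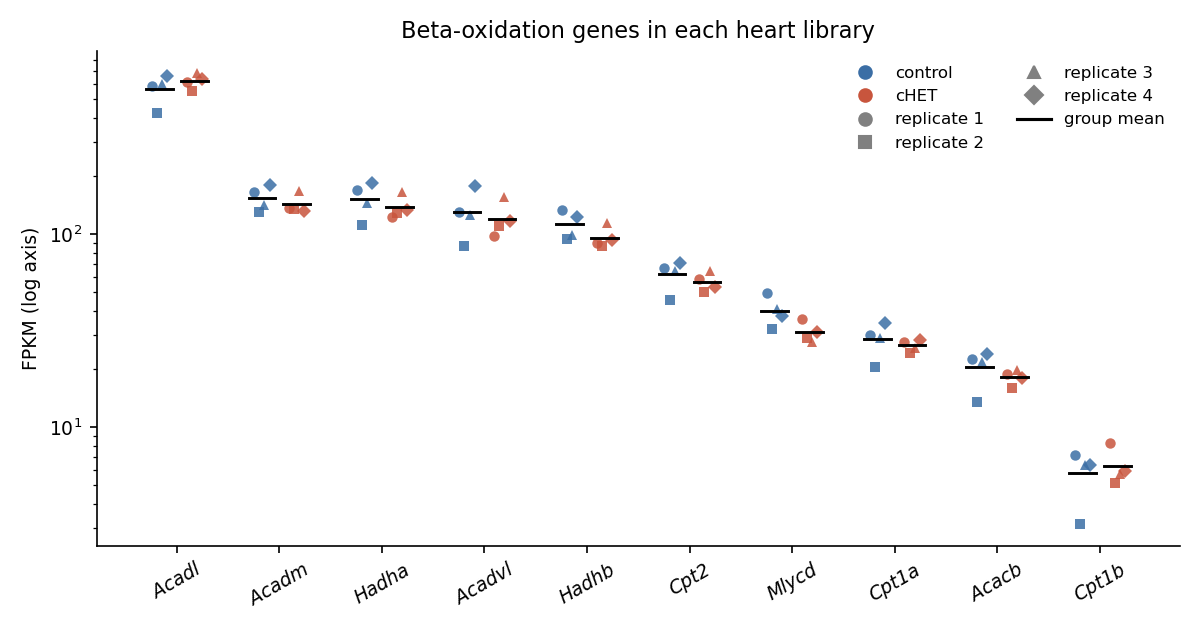
FPKM (log axis) of each gene in each library; colour gives the group, the marker shape the replicate number, and black bars are group means. Acadl stood highest and Cpt1b lowest in every library, and the groups overlapped for all 10 genes.

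Entry into the mitochondrion begins with CPT1. Cpt1a (ENSMUSG00000024900, chromosome 19, 3323301 to 3385732, plus strand), the liver form, stood at 29.9, 20.6, 29.1 and 34.4 FPKM in control 1 to 4 and at 27.6, 24.2, 25.8 and 28.4 FPKM in cHET 1 to 4. The cHET values lay inside the control range, whose ends were control 2 and control 4. The group levels were 28.5 ± 5.76 FPKM in control against 26.5 ± 1.89 in cHET (SD, n = 4). The log2 fold change of Cpt1a was -0.08 (95% interval -0.41 to 0.24; limma, adjusted p = 0.859). Fold changes here are on the log2(FPKM + 1) scale, which understates changes of low genes such as Cpt1b. The 8 liver markers summed to 5.68 to 11.8 FPKM in control and ran from 2.11 to 6.80 in cHET. Of these, Alb, Fgb, Serpina1a and Hnf4a were each under 0.1 FPKM in every library, while Ahsg stood between 1.25 and 9.30 FPKM and Ttr between 0.551 and 2.29, and their part in the value of Cpt1a was not tested.

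Cpt1b (ENSMUSG00000078937, chromosome 15, 89416405 to 89425863, minus strand), the muscle form, stood at 7.18, 3.18, 6.35 and 6.37 FPKM in control 1 to 4. In cHET 1 to 4 it stood at 8.26, 5.16, 5.72 and 5.96 FPKM. The highest value was that of cHET 1 and the lowest that of control 2, a spread of 2.60 times, the widest among the 10 genes. Its group levels were 5.77 ± 1.77 FPKM in control against 6.28 ± 1.36 in cHET (SD, n = 4), with a log2 fold change of 0.13 (95% interval -0.35 to 0.61; limma, adjusted p = 0.843). Without control 2 the value was -0.09.

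The level of Cpt1b in the table is uncertain for a reason the annotation shows. A gene model named Gm44502 runs on the same strand from 89416405 to 89429696, through Cpt1b and into its upstream neighbour Chkb, which encodes choline kinase beta. In GENCODE M21, 2744 of the 3372 exon bases of Cpt1b (81.4%) were shared with Gm44502, and 100% of the 4296 exon bases of Gm44502 were shared with Cpt1b or Chkb. Gm44502 was listed at 0 in all 8 libraries. The sources used here do not say how reads that fall in more than 1 gene were counted. The 0 of Gm44502 means that no read in the shared bases was counted for it. If such reads were not counted for Cpt1b either, the deposited level of Cpt1b is too low. Dividing the reads of Cpt1b by the 628 exon bases that Gm44502 does not share gave a mean of 32.3 on the FPKM scale, above the 27.5 of Cpt1a, while the full length gave 6.02. The order of the liver and muscle forms thus turned on the length used.

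With the deposited values, Cpt1b made up 19.4, 13.3, 17.9 and 15.6% of the summed Cpt1a and Cpt1b FPKM in control 1 to 4. In cHET 1 to 4 it made up 23.0, 17.6, 18.1 and 17.3%. The share was 16.6 ± 2.64% in control against 19.0 ± 2.69% in cHET (SD, n = 4), a difference of 2.47 percentage points (exact permutation test, two-sided, p = 0.286; adjusted p = 0.4 over 4 ratio comparisons). Control 2 was lowest and cHET 1 highest, and the groups overlapped. With 4 against 4 libraries the exact test cannot go below p = 0.0286.

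Cpt2 (ENSMUSG00000028607, chromosome 4, 107903981 to 107923610, minus strand) encodes the inner-membrane transferase that completes entry. It stood at 66.9, 45.5, 64.1 and 70.5 FPKM in control 1 to 4 and at 58.7, 49.96, 64.2 and 53.1 FPKM in cHET 1 to 4. The cHET libraries fell within the control range, and control 2 was the lowest of the 8. The log2 fold change of Cpt2 was -0.11 (95% interval -0.45 to 0.22; limma, adjusted p = 0.803). Slc25a20, the carrier between the steps of CPT1 and CPT2, stood at 41.9 ± 3.04 FPKM in control against 43.4 ± 4.11 in cHET (SD, n = 4), with a log2 fold change of 0.05 (limma, adjusted p = 0.877).

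The acyl-CoA dehydrogenases open each cycle, and their names give the chain length they prefer. Acadl (ENSMUSG00000026003, chromosome 1, 66830839 to 66863277, minus strand), the long-chain enzyme, had the highest level of the 10 genes. It stood at 586, 422, 599 and 659 FPKM in control 1 to 4 and at 609, 547, 679 and 634 FPKM in cHET 1 to 4. Control 2 was again below every other library, and cHET 3 was the highest. Its log2 fold change was 0.14 (95% interval -0.22 to 0.50; limma, adjusted p = 0.781), and without control 2 it was 0.0042.

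Acadm (ENSMUSG00000062908, chromosome 3, 153922357 to 153944632, minus strand), the medium-chain enzyme, stood at 165, 130.3, 141 and 179 FPKM in control 1 to 4. In cHET 1 to 4 it stood at 137, 134, 168 and 131 FPKM. In cHET, 3 libraries lay close together and cHET 3 stood above them. Its spread over all libraries, 1.37 times from lowest to highest, was the narrowest among the members. The log2 fold change was -0.10 (95% interval -0.41 to 0.20; limma, adjusted p = 0.803).

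Acadvl (ENSMUSG00000018574, chromosome 11, 70010183 to 70015411, minus strand), the very-long-chain enzyme, stood at 129, 87.2, 126 and 178 FPKM in control 1 to 4. In cHET 1 to 4 it stood at 97.6, 109.6, 155 and 117 FPKM. Control 4 and cHET 3 were high, and control 2 and cHET 1 were low. Its log2 fold change was -0.09 (95% interval -0.59 to 0.40; limma, adjusted p = 0.897). Acadvl overlaps the gene Dvl2 on the other strand, which shares 1151 of its 2686 exon bases (42.9%), and whether strand was used in counting is not given in the sources used here. Acadl made up 64.9 to 69.2% of the summed FPKM of these 3 dehydrogenases in control, and cHET ran from 67.8 to 72.2%, so the ranges overlapped.

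Hadha and Hadhb encode the alpha and beta subunits of the trifunctional protein, which carries out the remaining steps of the cycle on long chains. Hadha (ENSMUSG00000025745, chromosome 5, 30118304 to 30155162, minus strand) stood at 168, 111, 144 and 184 FPKM in control 1 to 4 and at 122, 128, 166 and 134 FPKM in cHET 1 to 4. Control 4 was highest and control 2 lowest. Its log2 fold change was -0.13 (95% interval -0.52 to 0.26; limma, adjusted p = 0.805). Hadhb (ENSMUSG00000059447, chromosome 5, 30155248 to 30184593, plus strand) stood at 134, 94.6, 99.1 and 123 FPKM in control 1 to 4 and at 89.4, 86.3, 114 and 93.0 FPKM in cHET 1 to 4. Here 3 of the 4 cHET libraries lay below every control library and cHET 3 did not. The log2 fold change of Hadhb was -0.23 (95% interval -0.55 to 0.10; limma, adjusted p = 0.659).

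The log2 ratio of Hadha to Hadhb was 0.33, 0.23, 0.54 and 0.58 in control 1 to 4 and 0.45, 0.57, 0.54 and 0.52 in cHET 1 to 4. Control 1 and 2 had the lowest ratios, and these are the libraries with Ucp1 above 16 FPKM. The mean difference, cHET minus control, was 0.10 (exact permutation test, two-sided, n = 4 per group, p = 0.4; adjusted p = 0.4). Without control 1 and 2 it was -0.04, and the part of the other tissue in it was not tested.

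Malonyl-CoA is made by Acacb and removed by Mlycd. Mlycd (ENSMUSG00000074064, chromosome 8, 119394878 to 119411102, plus strand) stood at 49.7, 32.2, 40.8 and 37.6 FPKM in control 1 to 4 and at 36.4, 29.1, 27.6 and 31.3 FPKM in cHET 1 to 4. In 3 of 4 cHET libraries Mlycd lay below every control library, while cHET 1 lay above control 2. The group levels were 40.1 ± 7.32 FPKM in control against 31.1 ± 3.82 in cHET (SD, n = 4), 22.4% lower. The log2 fold change of -0.35 was the largest in size among the members (95% interval -0.66 to -0.03; limma, unadjusted p = 0.0349, adjusted p = 0.533). It did not pass the test across all genes, in which 8.95% of genes had an unadjusted p under 0.05. Its value ran from -0.44 without control 2 to -0.24 without control 1.

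Acacb (ENSMUSG00000042010, chromosome 5, 114146535 to 114250761, plus strand) stood at 22.6, 13.5, 21.7 and 24.0 FPKM in control 1 to 4. In cHET 1 to 4 it stood at 18.9, 16.1, 19.7 and 18.1 FPKM, between control 2 and the other controls. Its log2 fold change was -0.13 (95% interval -0.51 to 0.24; limma, adjusted p = 0.793), and -0.31 without control 2. Acaca, the cytosolic carboxylase that serves fatty acid synthesis, was low, at 1.02 ± 0.0812 FPKM in control against 1.12 ± 0.213 in cHET (SD, n = 4). Acacb made up 95.04 ± 1.37% of the summed Acaca and Acacb FPKM in control against 94.2 ± 1.12% in cHET (SD, n = 4; two-sided exact permutation test, p = 0.4; adjusted p = 0.4). The log2 ratio of Acacb to Mlycd was -0.99 ± 0.27 in control against -0.77 ± 0.20 in cHET (SD, n = 4; two-sided exact permutation test, p = 0.257; adjusted p = 0.4). In every library Mlycd stood above Acacb.

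**Figure D2:**
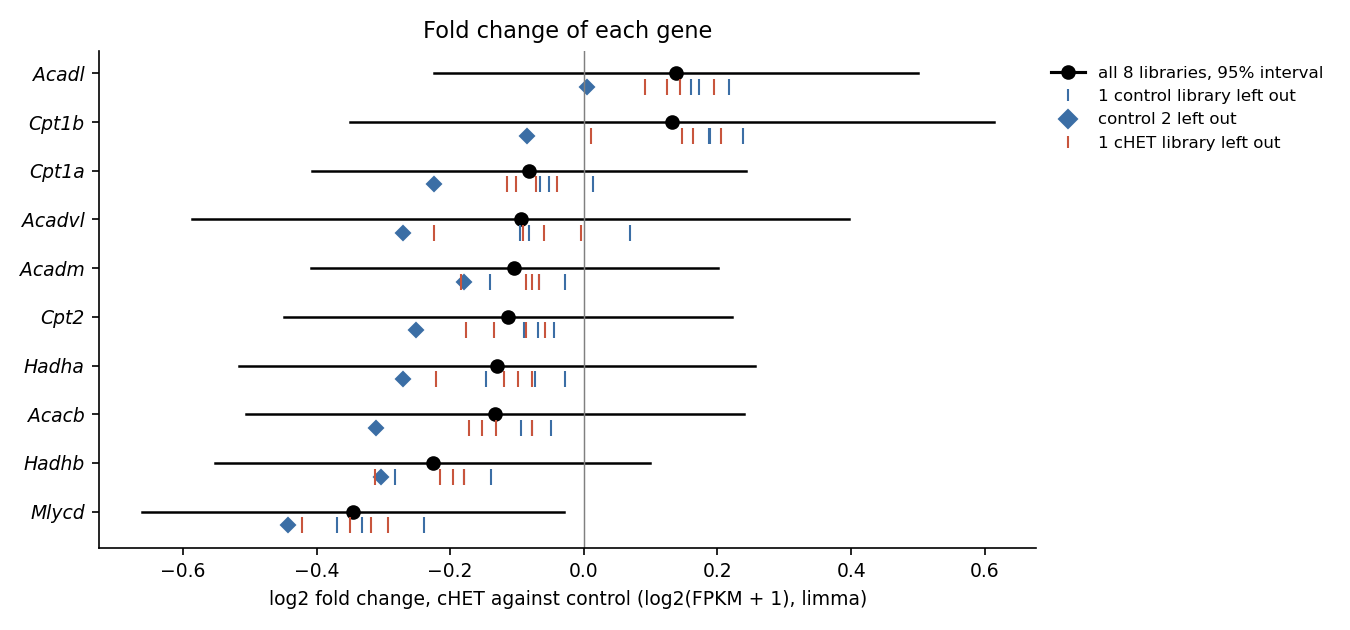
Log2 fold change of each gene, cHET against control, from limma on log2(FPKM + 1). Black points and lines are the value and 95% interval over 8 libraries; coloured marks are values with 1 library left out, and the diamond leaves out control 2. The interval of Mlycd alone lies below 0 before adjustment, from -0.66 to -0.03, and the diamond is at or near the low end of the left-out values of each gene.

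Over the whole set, 0 of 10 members passed the limma test at an adjusted p of 0.05, and 3 of the 13029 genes tested did (0.023%). At an unadjusted p under 0.05 there was 1 member, Mlycd, lower in cHET, where 3.92% of all genes were lower at that level, and 0 members were higher, where 5.03% of all genes were. The count of lower members at that level was 4 without control 2, 3 without control 1 and 2 and 2 with library weights. It was 0 with TPM, quantile or mtDNA-free scaling and 0 without control 1, control 3, cHET 2, cHET 3 or cHET 4. The groups overlapped for each of the 10, where 4.74% of all genes had groups that did not overlap (2.74% higher in cHET and 2.0% lower). All 10 had entered the test, which asked for a mean of at least 1 FPKM over the 8 libraries. The 95% intervals of the members ran from a lowest bound of 0.632-fold (Mlycd) to a highest of 1.53-fold (Cpt1b), so changes of that size are not shown to be absent.

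The mean level of the 10 members ranged more widely within the control group than it differed between the groups. The mean shift of the 10 members from the control mean, on the log2(FPKM + 1) scale, was 0.17, -0.41, 0.02 and 0.22 in control 1 to 4. In cHET 1 to 4 it was -0.08, -0.23, 0.04 and -0.11. The cHET libraries thus lay between control 2 and control 4. Control 2 held the lowest control value for 10 of 10 members, and for 31.1% of all genes tested. Control 4 held the highest control value for 7 members, against 28.9% of all genes, and control 1 for the other 3 (Cpt1b, Hadhb and Mlycd). In cHET the order was led by cHET 3, highest for 7 members, and 6 members were lowest in cHET 2. The 6 atrial markers summed to 243 FPKM in cHET 3 and 1485 in control 4. In the other libraries they summed to 3447 to 5304 FPKM, with cHET 2 highest. The part of atrial tissue in the members' values was not tested. The members together made up 0.317 ± 0.0901% of the summed FPKM in control, against 0.328 ± 0.0359% in cHET (SD, n = 4), with control 2 lowest at 0.206% and control 4 highest at 0.423%.

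Control 2 also stood apart in other markers, whose part in the low values was not tested. The 7 red cell markers summed to 8418 FPKM in control 2 and to 1024 to 2758 FPKM in the other control libraries, against 1597 to 2543 in cHET. The 8 macrophage markers summed to 169 FPKM there, against 80.9 to 118 in the other controls and 61.9 to 96.4 in cHET. The 6 epicardial markers summed to 102 FPKM there, against 57.5 to 62.6 in the other controls and 38.4 to 56.2 in cHET. The 7 smooth muscle and pericyte markers summed to 860 FPKM there, against 409 to 459 in the other controls, while cHET ran from 493 to 809. No gene of these 4 lists was under 0.1 FPKM in every library. The heart muscle markers summed to 21995 FPKM in control 2, within the range of 18319 to 22291 over the libraries. That sum hides single markers that went in opposite directions. Myh6, Myh7, Mybpc3, Ryr2, Ttn and Nkx2-5 each had their lowest value of the 8 libraries in control 2. Myl2 and Tnni3 had their highest value there, and Actc1, Tnnt2, Myl3 and Pln lay between their extremes. Leaving control 2 out gave 9 of 10 members below 0 with a median log2 fold change of -0.26, and leaving out control 1 and 2 gave 10 of 10 with a median of -0.25. No member passed the limma test in either fit (lowest adjusted p = 0.403 and 0.476). Leaving out control 4 instead gave 6 of 10 below 0 and a median of -0.03.

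**Figure D3:**
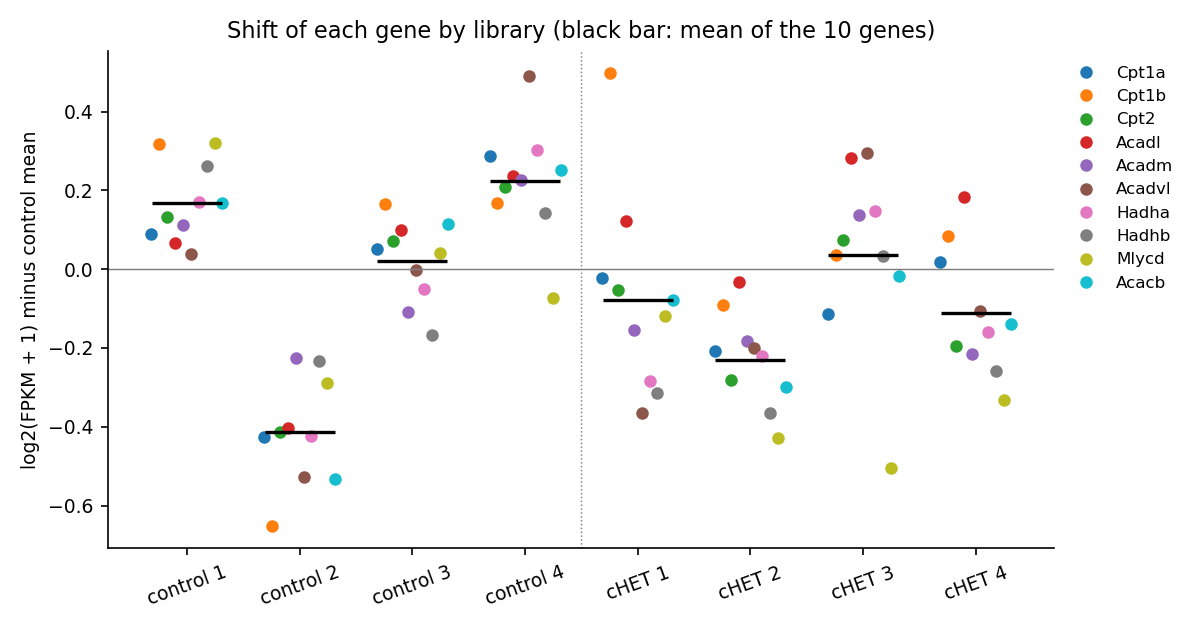
Shift of each of the 10 genes from its control mean in each library, in log2(FPKM + 1); points are genes and black bars the mean of the 10. All 10 genes lie below 0 in control 2, and the cHET libraries lie between the bars of control 2 (-0.41) and control 4 (0.22).

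After removing the group means, all 45 pairs of members had a correlation above 0 over the 8 libraries, with a median Pearson r of 0.76 and a range of 0.03 to 0.97. These are descriptions over libraries that share their depth and tissue makeup, and control 2 held the lowest control value of every member. The closest pair was Cpt2 and Acacb (r = 0.97). Hadha and Hadhb, which share the short stretch shown above, had r = 0.89, while Hadha had 0.96 with Acadvl. Mlycd was the least like the others, with a median r of 0.41, and its lowest was 0.03 with Acadvl. Mlycd was closest to Cpt1b (r = 0.87). Genes outside the set were compared without removing the group means, so their r cannot be set against that of the pairs. They are the highest of 11312 protein-coding genes over 8 libraries, and such a search can give a high r by itself. The closest to the mean of the members were Slu7 (r = 0.972), Myom2 (0.969), Rilpl1 (0.966), Zfp646 (0.963) and Hsdl2 (0.960). The closest genes to single members were Shank3 and Acot2 for Cpt1a (r = 0.981 and 0.949), Ap5m1 and Zgpat for Cpt1b (0.981 and 0.978), Rilpl1 and Tacc2 for Cpt2 (0.996 and 0.973) and Mprip and Eif4b for Acadl (0.987 and 0.982). They were Coq8a and Ide for Acadm (0.965 and 0.960), Cobll1 and Jak1 for Acadvl (0.989 and 0.980), Vwa8 and Cobll1 for Hadha (0.979 and 0.968) and Ephx2 and Decr1 for Hadhb (0.966 and 0.960). For Mlycd they were Gprasp2 and Sidt2 (0.983 and 0.982) and for Acacb they were Ulk1 and Acot2 (0.978 and 0.976). Decr1 and Acot2 are themselves genes of fatty acid metabolism.

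The order of the levels was Acadl, Acadm, Hadha, Acadvl, Hadhb, Cpt2, Mlycd, Cpt1a, Acacb and Cpt1b by deposited FPKM. Acadl stood 3.24 to 4.83 times above Acadm in the 8 libraries. Acadm and Hadha did not differ beyond their spread, since Acadm was above Hadha in 4 of 8 libraries. Acadvl was above Hadhb in 6 of 8, the exceptions being control 1 and control 2. All other neighbours kept their order in 8 of 8 libraries. Hadhb, the fifth in order, stood 1.52 to 2.08 times above Cpt2, which separates the enzymes of the cycle from those of entry and its control.

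The order also depends on the length that reads are divided by. For 9 of the 10 genes the table's length equalled the union of all exons in GENCODE M21, and for Cpt1a it was 4300 bases against a union of 7642. For Hadhb the table's length was 6595 bases, against 2048 for the principal transcript, and for Hadha 8730 against 4017. Acadm had 3913 against 2047 bases. If all reads came from the principal transcript, the mean level on the FPKM scale would be 335 for Hadhb and 315 for Hadha, compared with 104 and 145 FPKM as deposited, and Hadhb would move from the fifth place to the second, behind Acadl at 619. Acadm would stand at 283, Acadvl at 155, Cpt2 at 59.6 and Mlycd at 49.6. Cpt1a (27.4), Acacb (21.2) and Cpt1b (7.02) would keep their places. The ratio of FPKM between groups does not depend on this length, while fold changes on the log2(FPKM + 1) scale depend on it through the pseudocount. Other overlaps were small: Garem2 shares 75 exon bases with Hadha, and Gm15793 and Gm27934 in Acadl, Mir324 in Acadvl, Mir1960 in Hadhb and Gm13784 in Acacb share 0.

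**Figure D4:**
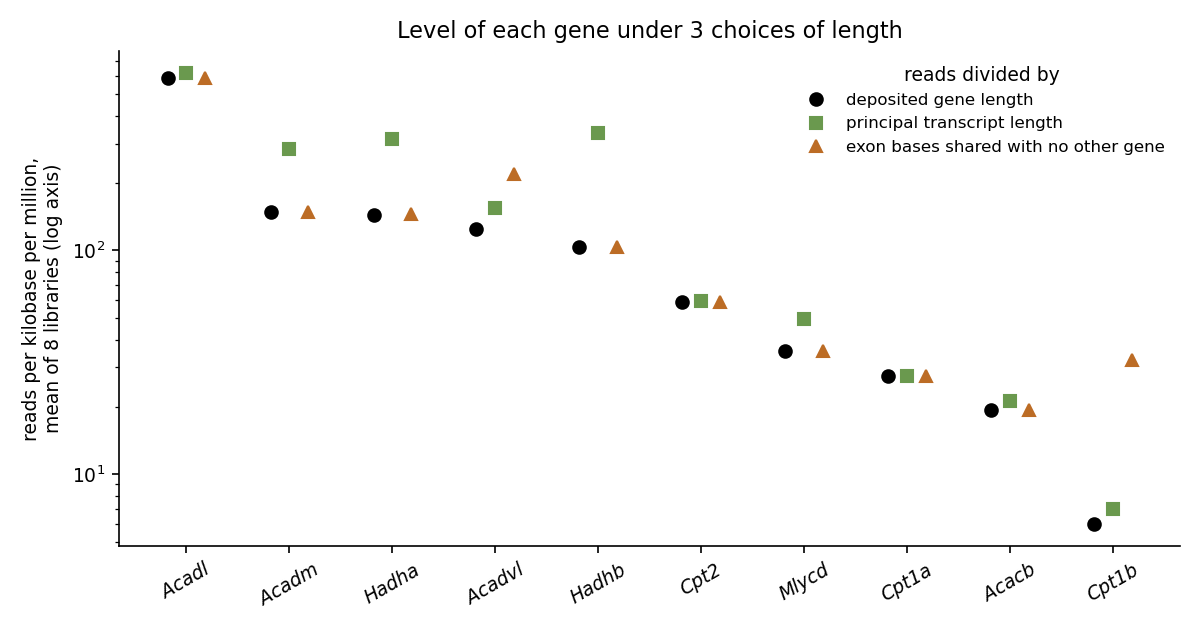
Mean level of each gene over 8 libraries (log axis) when its reads are divided by the deposited gene length, by the length of the principal transcript in GENCODE M21, or by the exon bases that no other gene shares. Hadhb moves from 104 to 335 with the principal transcript, and Cpt1b from 6.02 to 32.3 with the unshared bases.

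Other genes of the same mitochondrial pathway, with Cpt1c listed among them by its gene family, lay mostly below 0. Of 20 such genes, all tested, 0 passed the limma test in either direction, 16 were below 0 and the median log2 fold change was -0.15. That count was 12 of 20 with TPM, with a median of -0.051. It was 14 of 20 with scaling that leaves out mtDNA-encoded genes, with a median of -0.085. No gene had an unadjusted p under 0.05, and 2 lower genes did with library weights, without control 2, without control 1 and 2, or without cHET 3. The most abundant were Acaa2, the last enzyme of the cycle, at 591 ± 101 FPKM in control against 510.3 ± 29.95 in cHET, and Eci1, an isomerase for unsaturated fatty acids, at 265 ± 36.8 and 227 ± 11.5 (SD, n = 4). Their log2 fold changes were -0.20 and -0.21 (limma, adjusted p = 0.676 and 0.643). The genes with the smallest p were low: Acad12 at -0.32, Cpt1c, the CPT1 form of the brain, at -0.31, and Acad11 at -0.21 (limma, adjusted p = 0.579, 0.582 and 0.624). Of the peroxisomal pathway, 10 of 13 genes were tested, 8 of them were below 0 and 0 passed, with a median of -0.05. With TPM 4 of 10 were below 0, with a median of 0.0425, and with scaling that leaves out mtDNA-encoded genes 4 of 10, with a median of 0.00785. Acaa1a (-0.16), Scp2 (-0.15) and Hsd17b4 (-0.12), a thiolase, a lipid carrier and a multifunctional enzyme of that pathway, had the smallest p (limma, adjusted p = 0.624, 0.651 and 0.718). These lists were chosen with earlier results of these data known, so their direction is not independent evidence.

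Other known targets of PPAR receptors also lay mostly below 0. Of 13 tested genes, 11 were below 0, with a median of -0.26, and 0 passed the limma test. At an unadjusted p under 0.05 there were 5, all lower in cHET, where 3.92% of all genes were lower at that level. This list too was chosen with earlier results of these data known, so its direction is not independent evidence. Ucp3, an uncoupling protein of muscle mitochondria, stood at 36.3, 12.4, 17.5 and 21.3 FPKM in control 1 to 4 and at 13.3, 8.69, 7.49 and 6.48 FPKM in cHET 1 to 4. Here cHET 1 alone reached into the control range, and the log2 fold change was -1.14 (limma, adjusted p = 0.357). Acot1, an acyl-CoA thioesterase, had -0.53 (limma, adjusted p = 0.479) and Plin5, a lipid droplet protein, -0.33 (0.445). The abundant Fabp3, the fatty acid binding protein of heart, stood at 5657 ± 886 FPKM in control against 4703 ± 317 in cHET, and Cd36, a fatty acid transporter, at 199.6 ± 37.9 and 171 ± 14.3 (SD, n = 4), with log2 fold changes of -0.26 and -0.21 (limma, adjusted p = 0.659 and 0.679). For 1 gene of the list, Angptl4, named after its values were seen, the groups did not overlap, at 45.0 ± 11.4 and 31.7 ± 6.11 FPKM (SD, n = 4; limma, adjusted p = 0.524). Of all genes tested, 2.0% had groups that did not overlap and were lower in cHET. The count at an unadjusted p under 0.05 was 2 without control 1, 8 without control 2, 3 without control 3, 2 without cHET 3 and 1 with TPM scaling.

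The transcriptional regulators of these genes lay on both sides of 0. Of 19 tested regulators 11 were above 0 and 8 below, with a median of 0.02 and 0 past the limma test. The balance turned with the libraries used: 14 were below 0 with library weights, 11 without control 2, 13 without control 1 and 2, and 12 without cHET 3. Ppara, the PPAR receptor that drives beta-oxidation genes in heart, stood at 2.09 ± 1.21 FPKM in control against 2.08 ± 0.917 in cHET, and its coactivator Ppargc1a at 13.7 ± 3.09 and 13.7 ± 2.57 (SD, n = 4). Esrra, an ERR receptor with many mitochondrial targets, was the most abundant regulator, at 70.2 ± 5.01 and 73.0 ± 2.92 FPKM. The log2 fold changes of Ppara, Ppargc1a and Esrra were 0.03, 0.02 and 0.06 (limma, adjusted p = 0.976, 0.98 and 0.838). The smallest p belonged to Rxrg (-0.35), Med1 (0.19) and Rxrb (-0.20), which encode 2 partner receptors of PPAR and a coactivator subunit (limma, adjusted p = 0.469, 0.585 and 0.602).

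Genes around malonyl-CoA and its kinase AMPK, which is known to switch off acetyl-CoA carboxylase, lay mostly on the other side of 0. Of 13 genes 11 were above 0, with a median of 0.12 and 0 past the limma test. Prkag3, a regulatory subunit of AMPK known from skeletal muscle, stood at 1.504, 2.17, 1.72 and 3.25 FPKM in control 1 to 4 and at 6.15, 2.89, 3.74 and 4.86 FPKM in cHET 1 to 4. Only cHET 2 fell below the highest control library, control 4, and the log2 fold change was 0.77 (limma, unadjusted p = 0.00565, adjusted p = 0.374). Summed markers of skeletal muscle were 3.54 to 5.68 FPKM in control and 5.84 to 15.3 FPKM in cHET, with Myh1, Myh2, Myh3, Myh4, Myf6 and Myod1, 6 of the 12, under 0.1 FPKM in every library, and their part in the value of Prkag3 was not tested. The kinases Camkk2 (0.16) and Stk11 (0.11) that act on AMPK and its subunit gene Prkag2 (0.11) had adjusted p-values of 0.593, 0.668 and 0.762 in limma. Without control 1 and 2 the median of this list was -0.06 and 7 of 13 were below 0, and with library weights 8 of 13 were.

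**Figure D5:**
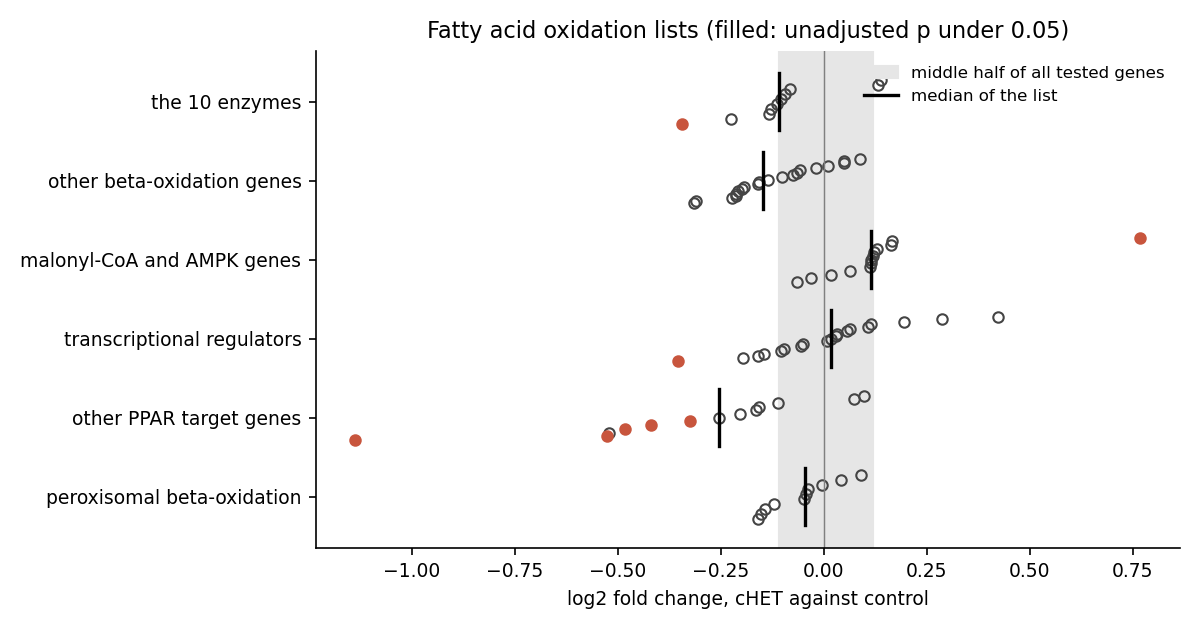
Log2 fold change, cHET against control, of each tested gene in the 6 lists; filled points have an unadjusted limma p under 0.05, black bars are list medians and the grey band holds the middle of all tested genes, from -0.11 to 0.12. The PPAR targets have the lowest median (-0.26) and the malonyl-CoA and AMPK genes the highest (0.12), and no gene passed after adjustment.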

How the data were processed

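The deposited table holds 1 FPKM value per gene and library, in the unit that the authors name in the column labels, per the file headers. Gene length in bases is a further deposited column, of another unit. Build mm9, DESeq2 1.20.0, featureCounts 1.5.0-p3 and HISAT2 2.0.5 are named without roles, per the submitters' processing notes. The table's starts and ends equalled those of GENCODE M21 (GRCm38) for 98.3% of 54495 shared identifiers, so coordinates are given on GRCm38. FPKM times length was a whole multiple of 1 step per library for 100% of values within 0.05 reads, which gave the rebuilt reads.

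Genes with a mean of at least 1 FPKM (13029) entered limma 3.58.1 (R 4.3.3) on the log2(FPKM + 1) scale, with a mean-variance trend and robust moderation. Tests compared cHET with control and were two-sided, with Benjamini-Hochberg adjustment over all genes at 0.05. The limma step was tested on simulated reads. Ratios of single genes were compared with exact permutation tests. Gene lists are described by counts and medians without a test. Of each list outside the members, the 3 genes with the smallest p and the 2 most abundant are named, besides fixed genes, genes that overlap a member, and the 2 genes most like each member or 5 most like their mean. Members and lists were chosen with earlier results of these data known. Whether libraries came from separate animals is stated only as biological replicates. Same-numbered libraries were not treated as pairs. Alternatives were other pseudocounts, filters, scalings, variance models, covariates and libraries left out. Protein sequences were not used here.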

Additional observations from a re-analysis of the deposited data

Results flagged for a closer look

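In 28 groups of 4 values, 2 had a single library far from the other 3 by Dixon's ratio (gap over range, at the 95% level). Chance gives such a gap in about 1 group in 20. For Acadm in cHET the ratio was 0.849, since cHET 3 stood at 168 FPKM and the others at 131 to 137. For the Cpt1b share of summed Cpt1a and Cpt1b in cHET it was 0.861, since cHET 1 stood at 23.0% and the others at 17.3 to 18.1%.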

How the results depend on the processing

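No member passed the limma test in any of the 23 alternatives, and their lowest adjusted p was 0.189, with library weights. The count of genes past the test was 11 with library weights (8 higher and 3 lower in cHET), 1 with the replicate number as a block (1 higher), and 1 without control 1, control 2 and cHET 2 (1 higher), against 3 in the fit reported. It was 2 to 3 with 1 library left out. The median of the members ran from -0.26 to -0.03 with 1 library left out.

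Deviations from the group mean correlated at 0.0521 to 0.286 in same-numbered libraries (2 of 4 above 0.1). Differently numbered libraries of the 2 groups gave -0.27 to 0.34. With 4 same-numbered pairs, these values do not decide whether the numbers pair the libraries. With the replicate block the lowest adjusted p of the members was 0.234.

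Signs near 0 depended on scaling and on single libraries, and the cause was not tested. With TPM, Cpt1a was at 0.0141 and Acadvl at 0.00407. With library weights, Cpt1b was at -0.0285, Prkag2 at -0.0138, Esrra at -0.00504, Ucp1 at 0.58, Adipoq at 0.12, Ppara at -0.12 and Ppargc1a at -0.00547. With sex as a covariate Ppara was at -0.0424. The lowest log2 fold change of a member was then -0.26, against -0.35 in the fit reported. Without control 1 and 2, Cpt1b was at -0.0347, Acadl at -0.0294, Prkag2 at -0.0725, Ucp1 at 1.04, Ppara at -0.37, Ppargc1a at -0.0751 and the log2 ratio of Hadha to Hadhb at -0.0428. Without cHET 2 as well, Prkag2 was at -0.11, Ppara at -0.31, Ppargc1a at -0.0308 and that ratio at -0.0587.

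With 1 library left out, Cpt1a ran from -0.22 to 0.0137, Cpt1b from -0.0852 to 0.24, Acadvl from -0.27 to 0.0692, Mrps5 from -0.30 to 0.0412, Slc25a20 from -0.00472 to 0.0915, Ppara from -0.16 to 0.26 and Ppargc1a from -0.12 to 0.11. Cpt1b had the fewest reads, with 173 to 476 per library, and most of its exon bases are shared with Gm44502.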
